A study of Mus musculus with 12 samples.

Results

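The genes described are 166 solute carriers that were well detected in ARG1+ and ARG1- microglia of the postnatal mouse brain. They are the protein-coding genes whose symbol is Slc followed by a number and that had at least 10 raw counts in each of 12 libraries. Of 371 such genes among the 55487 genes of the count table, 171 reached this limit. The 7 genes *Slc7a1*, *Slc7a2*, *Slc2a1*, *Slc16a1*, *Slc16a3*, *Slc1a2* and *Slc1a3*, of which 5 reached it, were left out by name. The members were thus chosen by their raw counts in these same libraries, and the levels below are given as a description. The members just inside the limit were *Slc41a1*, *Slc25a15* and *Slc9a3r2*, with lowest counts of 10, 13 and 19, and the carriers just outside it were *Slc1a5*, *Slc29a2* and *Slc16a4*, with lowest counts of 7, 6 and 5. A further 20 carriers reached 10 counts in all ARG1+ libraries but not in all ARG1- libraries, and 1 did the reverse, so that carriers low in 1 population are absent from the list.

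Microglia were sorted from the basal forebrain and striatum (BF/striatum) of YARG mice on postnatal day 13. In YARG mice, all of which carry the reporter, YFP is attached to the *Arg1* locus, so that cells using this locus fluoresce. Cells positive for CX3CR1, the fractalkine receptor, and negative for CD206, a protein of border macrophages, were separated by YFP into ARG1+ and ARG1- microglia. The study's methods pool tissue of several mice of 1 sex, 1 litter for each biological replicate, before the sort, so that an ARG1+ and an ARG1- library may come from the same pool, while the tests treat the 12 libraries as independent. The 4 groups were ARG1- female, ARG1+ female, ARG1- male and ARG1+ male, with 3 libraries each, and no treatment is given for any of them. Which libraries share a pool is not given in the labels, and the p values measure the spread between these libraries.

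Solute carriers are membrane proteins that move amino acids, sugars, ions, metals, vitamins and nucleotides across the cell surface and the membranes of lysosomes, the Golgi apparatus and mitochondria. Most work as exchangers or cotransporters, driven by gradients of sodium, protons or the substrate itself. In microglia, *Slc2a5* (the fructose transporter GLUT5) is a known marker gene, and carriers of iron and amino acids are known from macrophages in general, whose arginase uses arginine as its substrate.

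The libraries held 28356659 to 60625170 counts. The members took 1.30 to 1.53% of the counts in ARG1- libraries and 1.49 to 1.70% in ARG1+ libraries. After thinning to the smallest total, 17620 to 19355 genes were detected in ARG1- and 18900 to 21734 in ARG1+ libraries, and genes of the mitochondrial genome took 0.247 to 0.636% and 0.147 to 0.396% of counts. The microglial markers *Csf1r*, *Cx3cr1*, *P2ry12*, *Tmem119* and *Sall1* were present in every library, from *Csf1r* at 11353 to 23532 CPM in ARG1- and 13374 to 20314 CPM in ARG1+ libraries to *Sall1* at 304 to 362 CPM and 372 to 574 CPM, where CPM scales each gene's count to the TMM-normalized library size. *Sall1* was higher (log2 fold change 0.43, adjusted p = 0.0239), while *P2ry12* (-0.55, adjusted p = 0.00243) and *Tmem119* (-0.77, adjusted p = 0.00109) were lower in ARG1+ microglia. Of the markers of other cell types, the endothelial *Cldn5*, the pericyte *Kcnj8*, the monocyte *Chil3* and the erythroid *Slc4a1* had 0 counts in all 12 libraries. The border macrophage gene *Mrc1*, which encodes CD206, was present at 100 to 138 CPM in ARG1- and 102 to 231 CPM in ARG1+ libraries. The 6 astrocyte markers summed to 163 to 220 CPM in ARG1- and 128 to 147 CPM in ARG1+ libraries, of which *Slc1a3* made up most and was the 1 lower at the limit, and of the 4 monocyte markers (4.15 to 13.1 and 1.48 to 6.43 CPM) *Plac8* was lower. No other marker of these lists passed. The 6 endothelial markers summed to 46.1 to 131 CPM in ARG1- and 107 to 141 CPM in ARG1+ libraries, the 6 of the oligodendrocyte lineage to 41.9 to 127 and 37.3 to 86.6 CPM, the 3 of the choroid plexus to 12.2 to 230 and 10.3 to 186 CPM, and the 6 of border macrophages to 106 to 141 and 109 to 235 CPM. Those of neurons, pericytes and erythroid cells reached at most 9.34, 3.35 and 14.4 CPM in any library. Whether these other cells have a part in the differences between carriers was not tested, and in bulk libraries fewer cells of a type and less RNA per cell cannot be told apart.

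Levels between genes were compared as CPM per kb of exon, because a longer transcript gives more reads. The median member stood at 7.50 CPM per kb over the 12 libraries, and the range ran from 0.722 for *Slc5a3* to 344 for *Slc25a5*. The 5 carriers with the highest level were *Slc25a5*, an ADP/ATP exchanger of the inner mitochondrial membrane, at 344 ± 102 (SD, n = 12), *Slc2a5* at 203 ± 64.4, *Slc25a45*, a mitochondrial carrier, at 180 ± 21.4, *Slc3a2* at 172 ± 25.4 and *Slc35b2* at 120 ± 33.2 CPM per kb. *Slc3a2* is the heavy chain that amino acid exchangers need to reach the cell surface, and *Slc35b2* brings the sulfate donor PAPS into the Golgi. The order differed between the populations: in ARG1+ libraries alone *Slc25a5* (255) was followed by *Slc25a45* (185), *Slc3a2* (166), *Slc2a5* (156) and *Slc7a8* (136), with *Slc35b2* at 90.7 CPM per kb. Neighbours in the order over all libraries, such as *Slc2a5* and *Slc25a45* or *Slc35b2* and *Slc46a3* (117 ± 17.1), had overlapping ranges of mean ± SD. These SDs span both populations. Only 8 members exceeded 100 CPM per kb, and 4 stayed under 1. The share of carriers at 10 counts or more in every library varied by substrate class, with 26 of 33 carriers of metals and haem, 33 of 47 mitochondrial carriers, 25 of 60 carriers of amino acids and peptides and 12 of 69 carriers of carboxylates and organic ions, counting those left out by name. Of all 371 carriers, 72 had no count in any library, where 3 counts, taken as the lowest readable amount, equal at most 0.102 CPM.

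**Figure D1:**
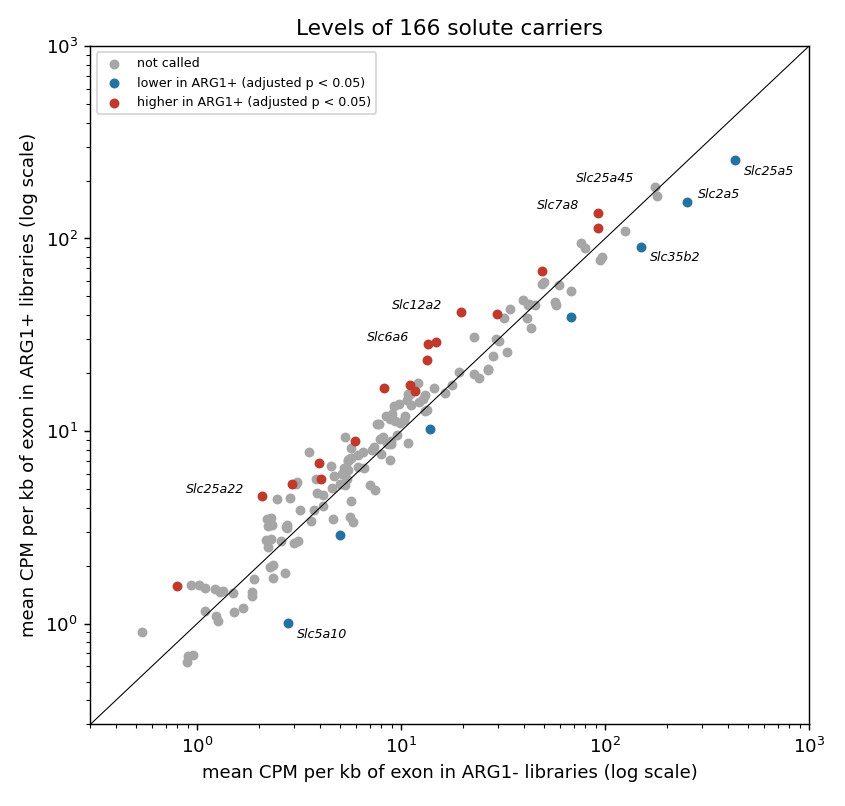
Mean level of each of the 166 carriers in ARG1- (horizontal axis) and ARG1+ libraries (vertical axis), in CPM per kb of exon on log scales, n = 6 libraries each; red and blue points were higher or lower in ARG1+ at an adjusted p under 0.05, and the line marks equal levels. Of the 5 carriers with the highest level, the 3 that were called, *Slc25a5*, *Slc2a5* and *Slc35b2*, lie under the line, and so does *Slc3a2*, which was not called.

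ARG1+ and ARG1- microglia were compared over all 12 libraries with sex as a second term, and p values were obtained with the quasi-likelihood F test of edgeR and adjusted by Benjamini-Hochberg over 16908 genes. Of the 166 members, 17 were higher and 7 lower in ARG1+ microglia, and 142 did not pass the limit. Among all genes tested, 15.9% passed (6.44% higher and 9.42% lower), and among those at 10 counts or more throughout 20.5% (7.11% higher and 13.4% lower). The corresponding shares of the members were 10.2% higher and 4.22% lower. The members' median log2 fold change was 0.17, and that of all genes tested was 0.06. Restricting the test to genes at 10 counts or more throughout gave 27 higher and 6 lower members, where 11% and 13.5% of all genes in that fit passed. Removing each library's trend on exon length and GC content together with its mean level, a choice made after seeing the data that sets the median of all genes at -0.26 and that of the members at -0.21, gave 4 higher and 24 lower, while removing the trend alone gave 15 and 7. With the mean level removed as well, 2.95% of all genes were higher and 21.1% lower, and with the trend alone removed 5.13% and 9.97%. Without ARG1+ male replicate 16, 11 members were higher (4.2% of all genes). Without ARG1+ female replicate 7 or ARG1+ male replicate 12, 4 members were lower (6.16% and 6% of all genes).

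The 2 populations were fully separated in 12 members, 8 with ARG1+ libraries on top and 4 with ARG1- libraries on top, and this held for 3.46% and 8.95% of genes at 10 counts or more throughout and for 3.48% and 6.56% of all genes tested. The change reached 2-fold in 5 of the 24 members that passed. The members' spread was larger among ARG1- libraries: the SD of log2 CPM had a median of 0.44 there and 0.27 among ARG1+ libraries, and was the larger in ARG1- for 128 of the 166 members. The same was not computed over all genes, so this is not shown to be particular to the carriers.

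**Figure D2:**
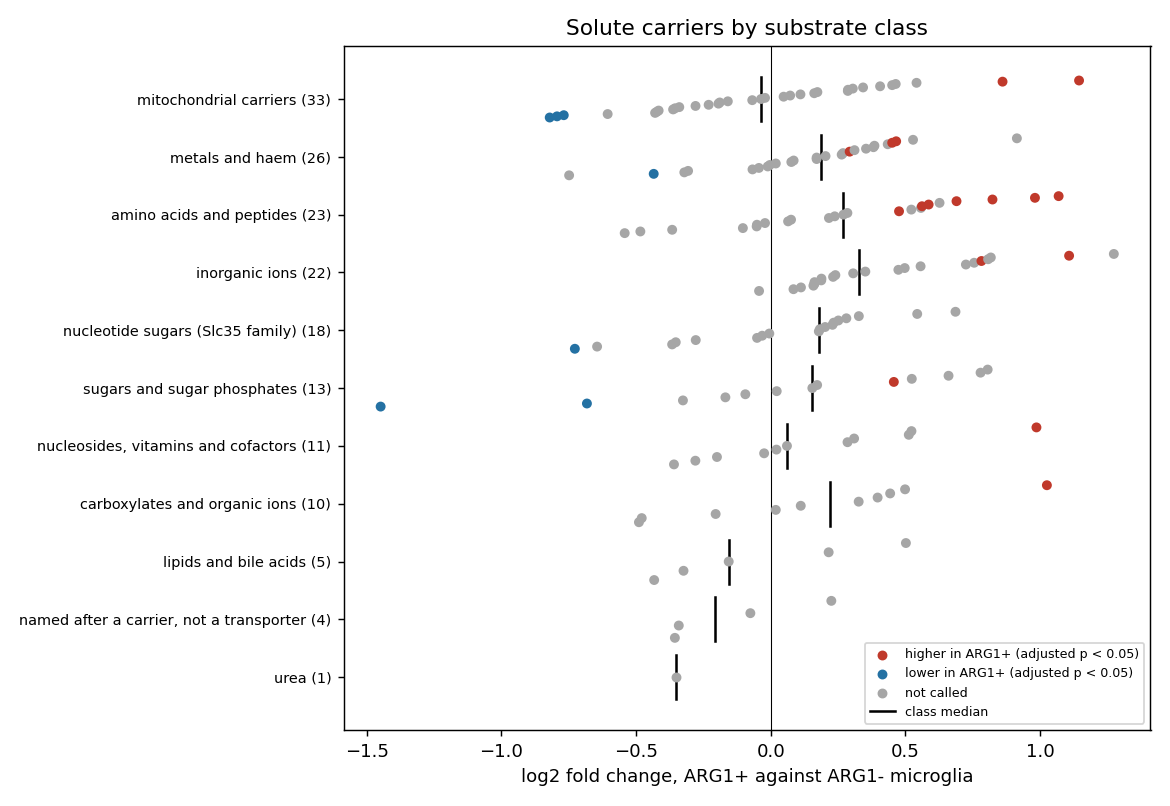
Log2 fold change of each carrier in ARG1+ against ARG1- microglia (horizontal axis) by substrate class, with the number of members in brackets; each point is 1 gene, points are spread vertically within a class in order of fold change, and black bars are class medians. The 7 red points among amino acid carriers (2 after removal of the length and GC trend together with the mean level) have no blue point beside them, and *Slc5a10* lies farthest to the left at -1.45.

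Carriers of amino acids and peptides counted 7 higher (30.4%), 0 lower and 16 not called of 23. Among genes at 10 counts or more throughout, 7.11% were higher and 13.4% lower. The median log2 fold change of the amino acid carriers was 0.27. The fitted change was positive in 16 of them, in 105 of all 166 members and in 9065 of all 16908 genes tested. The 7 were *Slc6a6*, *Slc38a6*, *Slc38a7*, *Slc43a2*, *Slc38a1*, *Slc7a8* and *Slc38a9*, and 4 of them belong to the Slc38 family of sodium-coupled neutral amino acid transporters and their lysosomal relatives. The members counted 4 higher and 0 lower when the length and GC trend was removed, where *Slc38a1* (0.23), *Slc38a6* (0.81) and *Slc38a9* (0.14) no longer passed, and 2 higher and 1 lower when the mean level was removed as well. Without ARG1- male replicate 5 there were 3 higher members of this class, as many as of the inorganic ions, and without ARG1- female replicate 13, ARG1- male replicate 6 or ARG1+ male replicate 16 there were 4. Amino acid carriers left out by name are not in these counts. Of those at the count limit, *Slc1a3* was lower without overlap (-0.43, adjusted p = 0.00817), and *Slc7a1* was not called (0.94, adjusted p = 0.131).

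The taurine transporter *Slc6a6* (ENSMUSG00000030096, chr6:91684053-91759066, GRCm38) had 67.8, 123 and 131 CPM as the lowest, median and highest ARG1- value and 192, 224 and 300 CPM in ARG1+ libraries. The 2 populations did not overlap, and the lowest value belonged to ARG1- male replicate 14. The log2 fold change was 1.07 (standard error 0.17, adjusted p = 0.00155), and *Slc6a6* passed in all 12 fits that left out 1 library each.

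*Slc38a7*, a lysosomal exporter of glutamine, had 21.6, 57.8 and 79.2 CPM in ARG1- and 82.3, 95.0 and 112 CPM in ARG1+ libraries (lowest, median and highest), also without overlap. Its log2 fold change was 0.82 (standard error 0.24, adjusted p = 0.0358), and it passed in 5 of the 12 fits that left out 1 library, with fold changes from 0.65 to 0.94. *Slc38a6*, a less well characterized relative, was among the lowest members at 6.21 ± 2.13 CPM in ARG1- and 12.2 ± 1.91 CPM in ARG1+ libraries (SD, n = 6 each), and its log2 fold change of 0.98 (standard error 0.27, adjusted p = 0.0298) passed in 5 of those 12 fits (0.81 to 1.12). The plasma membrane transporter *Slc38a1* rose from a median of 104 CPM (85.1 to 120) to 150 CPM (130 to 188), and *Slc38a9*, a lysosomal arginine sensor upstream of mTORC1, rose from 70.2 CPM (51.1 to 80.6) to 94.7 CPM (83.4 to 100). Both pairs of ranges lay apart, with log2 fold changes of 0.59 and 0.48 (adjusted p = 0.00535 and 0.0137).

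Of the exchangers that pair with *Slc3a2*, 1 passed, and differences among them were not tested. This was *Slc7a8*, the light chain LAT2 for neutral amino acids, with the highest level of the 4 light chains among the members at 114 CPM per kb. It had 315, 466 and 563 CPM in ARG1- and 541, 633 and 896 CPM in ARG1+ libraries (lowest, median and highest). These ranges overlapped slightly, and the log2 fold change was 0.56 (standard error 0.17, adjusted p = 0.0395), passing in 5 of the 12 fits that left out 1 library (0.47 to 0.65). *Slc3a2* itself had 492, 610 and 839 CPM in ARG1- and 508, 595 and 651 CPM in ARG1+ libraries, a log2 fold change of -0.10 (standard error 0.12, adjusted p = 0.624). The other light chains, *Slc7a7* for cationic amino acids (log2 fold change -0.05), *Slc7a5* for large neutral ones (-0.05) and *Slc7a6* (0.56), did not pass either (adjusted p = 0.818, 0.903 and 0.200). *Slc43a2*, a uniporter of branched-chain and aromatic amino acids, is described with the sexes.

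The 22 carriers of inorganic ions held 2 higher (9.09%) and 0 lower calls, beside 7.11% and 13.4% of genes at 10 counts or more throughout. The carriers' median log2 fold change was 0.33. Of them 21 were fitted higher in ARG1+ microglia, against 105 of the 166 members and 9065 of the 16908 genes tested. The higher calls numbered 5 with DESeq2 or with only genes at 10 counts or more throughout, 4 without ARG1- female replicate 1, 3 without ARG1- female replicate 13, ARG1- male replicate 5 or the sex term, and 1 with the mean level removed. *Slc12a2*, the sodium-potassium-chloride cotransporter NKCC1 that sets chloride and cell volume (ENSMUSG00000024597), had 124, 233 and 276 CPM in ARG1- and 318, 451 and 565 CPM in ARG1+ libraries. No ARG1+ library reached down to an ARG1- one, and the log2 fold change was 1.11 (standard error 0.18, adjusted p = 0.002). *Slc4a7*, a sodium bicarbonate cotransporter of pH regulation, rose from 57.6 CPM (43.3 to 86.7) to 106 CPM (70.5 to 137), with overlapping ranges and a log2 fold change of 0.78 (standard error 0.17, adjusted p = 0.00817). The highest level of the class, 54.8 CPM per kb, was that of *Slc12a9*, a member of the cation-chloride cotransporter family, whose log2 fold change was 0.24 (standard error 0.16, adjusted p = 0.368). *Slc9a7*, a sodium/proton exchanger of the Golgi, had the largest fitted increase of all members at 1.27 (standard error 0.43) but spread from 4.62 to 35.6 CPM among ARG1- libraries and did not pass (adjusted p = 0.0642); it was named after its values were seen.

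Of the 26 carriers of metals and haem, 3 were higher and 1 was lower (0 and 3 with the mean level removed), with a median log2 fold change of 0.19. The shares of 11.5% and 3.85% stood beside 7.11% and 13.4% of genes at 10 counts or more throughout. The iron exporter ferroportin, *Slc40a1* (ENSMUSG00000025993, chr1:45908068-45926523), had 398, 447 and 478 CPM in ARG1- and 438, 620 and 716 CPM in ARG1+ libraries. All but 1 of the ARG1+ libraries lay above the ARG1- range, with a log2 fold change of 0.45 (standard error 0.10, adjusted p = 0.0122) that no longer passed when the length and GC trend was removed. *Slc11a1*, the phagosomal metal transporter NRAMP1 and the carrier with the highest level in this class at 103 CPM per kb, rose less, from 335 CPM (293 to 405) to 419 CPM (391 to 449), a log2 fold change of 0.29 (standard error 0.08, adjusted p = 0.0339) that passed in 5 of the 12 fits that left out 1 library (0.25 to 0.35).

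The zinc transporters *Slc30a5* and *Slc30a6*, whose proteins form a heterodimer that loads zinc into the secretory pathway, passed the limit in opposite directions. *Slc30a5* had 63.7, 82.4 and 120 CPM in ARG1- and 102, 116 and 137 CPM in ARG1+ libraries (log2 fold change 0.47, standard error 0.14, adjusted p = 0.0427), and *Slc30a6* had 34.1, 41.9 and 52 CPM and 25.4, 30.7 and 39.2 CPM (log2 fold change -0.43, standard error 0.14, adjusted p = 0.0477). Both pairs of ranges overlapped. Neither call was firm: *Slc30a5* passed in 3 (fold changes from 0.42 to 0.58) and *Slc30a6* in 1 (-0.49 to -0.34) of the 12 fits that left out 1 library, and neither passed after removal of the length and GC trend, which left the fold change of *Slc30a6* at -0.44 (adjusted p = 0.0685) and that of *Slc30a5* at 0.32 (adjusted p = 0.273). *Slc41a1*, a magnesium transporter just inside the count limit, had a fitted change of 0.91 (standard error 0.56, adjusted p = 0.313).

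Of the 33 mitochondrial carriers, 2 were higher and 3 lower (0 and 8 with the mean level removed), with a median log2 fold change of -0.04. The shares of 6.06% and 9.09% stood beside 7.11% and 13.4% of genes at 10 counts or more throughout. The lower calls included the ADP/ATP exchangers *Slc25a5* and *Slc25a4*. *Slc25a5* (ENSMUSG00000016319, chrX:36795651-36798807) had 621, 711 and 826 CPM in ARG1- and 346, 411 and 499 CPM in ARG1+ libraries, and *Slc25a4* (ENSMUSG00000031633, chr8:46206797-46211284) had 129, 166 and 180 CPM and 66.2, 95.4 and 115 CPM. For both, every ARG1+ library lay below every ARG1- library. The log2 fold changes were -0.77 (standard error 0.11, adjusted p = 0.000935) and -0.79 (standard error 0.14, adjusted p = 0.00333). Both genes resemble each other and have processed copies in the genome, so that the counts of each are less certain than those of other members. *Slc25a13*, the aspartate-glutamate carrier citrin, fell from 19.4 CPM (14 to 23.6) to 9.12 CPM (6.6 to 18.2), with overlap and a log2 fold change of -0.82 (standard error 0.24, adjusted p = 0.0343); it passed in 1 of the 12 fits that left out 1 library (-0.94 to -0.66).

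Higher in ARG1+ microglia were *Slc25a22*, a mitochondrial glutamate carrier, and *Slc25a37*, the iron importer mitoferrin 1. *Slc25a22* had 3.67, 12.9 and 19.6 CPM in ARG1- and 21.8, 28 and 33.8 CPM in ARG1+ libraries. The ranges did not overlap, the log2 fold change was 1.14 (standard error 0.33, adjusted p = 0.0349), and it passed in 4 of the 12 fits that left out 1 library (0.97 to 1.37). *Slc25a37* rose from 16.1 CPM (14.2 to 22.9) to 32.2 CPM (22.6 to 43.4), a log2 fold change of 0.86 (standard error 0.20, adjusted p = 0.0142) that passed in all 12. *Slc25a45*, high in both populations, had a log2 fold change of 0.07 (standard error 0.09, adjusted p = 0.661), and *Slc25a15*, the ornithine carrier just inside the count limit, of 0.41 (standard error 0.77, adjusted p = 0.773). The genes *Mpc1* and *Mpc2* of the mitochondrial pyruvate carrier bear no Slc symbol; they were lower in ARG1+ microglia, with *Mpc1* at 87.9 ± 7.48 and 46.1 ± 6.34 CPM and *Mpc2* at 34.5 ± 3.91 and 20.9 ± 5.11 CPM in ARG1- and ARG1+ libraries (log2 fold changes -0.93 and -0.72, adjusted p = 0.000642 and 0.0153).

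Carriers of sugars and sugar phosphates numbered 13, of which 1 was higher and 2 were lower (0 and 3 with the mean level removed). The shares of 7.69% and 15.4% stood beside 7.11% and 13.4% of genes at 10 counts or more throughout. *Slc2a5* (ENSMUSG00000028976, chr4:150119283-150144169), the fructose transporter with the highest level of the class, had 636, 834 and 1206 CPM in ARG1- and 428, 536 and 611 CPM in ARG1+ libraries. The populations lay apart, with a log2 fold change of -0.68 (standard error 0.14, adjusted p = 0.00778). *Slc37a2*, an exchanger of glucose 6-phosphate and phosphate in the endoplasmic reticulum that is abundant in macrophages, moved the other way, from 197 CPM (167 to 218) to 270 CPM (226 to 310), again without overlap (log2 fold change 0.46, standard error 0.11, adjusted p = 0.0181). *Slc5a10*, a sodium-coupled sugar transporter, had the largest fitted decrease of all members, -1.45 (standard error 0.37, adjusted p = 0.021), at a low level of 6.46 CPM (3.20 to 11.2) in ARG1- and 2.2 CPM (1.49 to 3.62) in ARG1+ libraries. It did not pass without ARG1+ female replicate 7 or ARG1+ male replicate 12 (fold changes over the 12 such fits from -1.57 to -1.26), and 16.6% of its exon bases overlap *Fam83g* on the other strand, whose reads cannot be told apart without the strand.

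**Figure D3:**
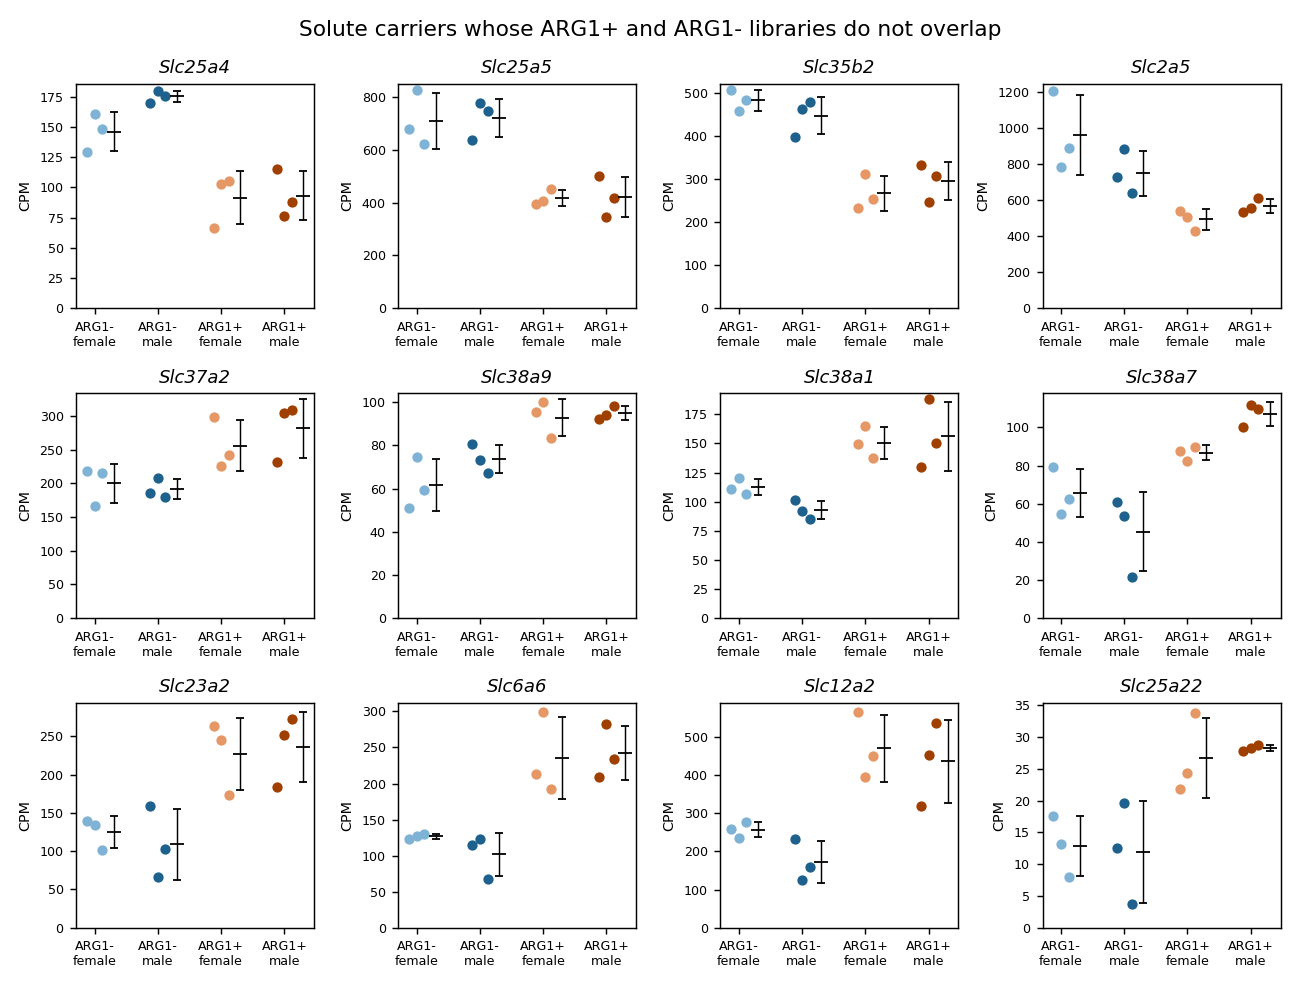
CPM in each library for the 12 carriers whose 6 ARG1+ and 6 ARG1- libraries do not overlap, in order of log2 fold change; points are libraries in the 4 groups of 3, and bars to their right are the mean and SD of each group. From *Slc25a4* to *Slc2a5* the ARG1+ points (orange and brown) are the lower ones, and from *Slc37a2* to *Slc25a22* the higher ones.

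In the Slc35 family, whose members bring nucleotide sugars and related compounds into the Golgi and endoplasmic reticulum, 0 of 18 were higher and 1 was lower (5.56%; 0 and 5 members with the mean level removed). Of genes at 10 counts or more throughout, 7.11% were higher and 13.4% lower. With the mean level removed, 2.95% and 21.1% of all genes were. The 1 lower carrier was *Slc35b2* (ENSMUSG00000037089, chr17:45563874-45567671), the PAPS carrier that sulfation in the Golgi depends on. It had 398, 472 and 508 CPM in ARG1- and 233, 281 and 333 CPM in ARG1+ libraries. All ARG1+ libraries lay below all ARG1- ones, and the log2 fold change was -0.73 (standard error 0.11, adjusted p = 0.00121). Its neighbours in the family ranged from -0.64 (*Slc35d2*) to 0.69 (*Slc35e2*).

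Among 11 carriers of nucleosides, vitamins and cofactors, 1 was higher (9.09%) and 0 lower (1 and 2 with the mean level removed). Of genes at 10 counts or more throughout, 7.11% were higher and 13.4% lower. With the mean level removed, 2.95% and 21.1% of all genes were. *Slc23a2*, the sodium-coupled vitamin C transporter SVCT2 (ENSMUSG00000027340, chr2:132052496-132145108), had 65.7, 119 and 158 CPM in ARG1- and 174, 248 and 272 CPM in ARG1+ libraries. There was no overlap, and the log2 fold change was 0.99 (standard error 0.20, adjusted p = 0.00682). *Slc46a3*, a lysosomal carrier with the highest level of the class, had a log2 fold change of -0.20 (standard error 0.10, adjusted p = 0.206). Of 10 carriers of carboxylates and organic ions, 1 was higher (10%) and 0 lower (0 and 1 with the mean level removed). The 1 higher was *Slc22a17*, a receptor for the siderophore-binding protein lipocalin 2. It rose from 40.3 CPM (20.4 to 51.2) to 78.2 CPM (44.9 to 96.5), with slight overlap. Its log2 fold change was 1.03 (standard error 0.26, adjusted p = 0.0187), and 0.68 with the mean level removed (adjusted p = 0.0507). *Slc16a6*, a monocarboxylate transporter and the highest of that class at 43.6 CPM per kb, had a log2 fold change of 0.11 (standard error 0.12, adjusted p = 0.604), and 21.5% of its exon bases overlap *Amz2* on the other strand.

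None of the 10 remaining members passed in the fit of all 12 libraries. Without ARG1- male replicate 14, 1 of those named after a carrier was lower (7.56% of all genes). With the mean level removed, *Slc9a3r1* was lower (-0.54, adjusted p = 0.02045), as were 21.1% of all genes. For 5 carriers of lipids and bile acids the smallest p was that of the fatty acid transporter *Slc27a1*, at a log2 fold change of 0.50 (standard error 0.16, adjusted p = 0.0533), which stood at 44.3, 56.1 and 74.2 CPM in ARG1- and 64.4, 78.6 and 96.4 CPM in ARG1+ libraries. It did pass in 6 of the 11 alternatives that kept every library, DESeq2 among them (adjusted p = 0.00858), and in 2 of the 12 fits that left out 1 library, those without ARG1- female replicate 1 (0.58) and without ARG1- male replicate 5 (0.58). The highest of that class was *Slc10a3*, a member of the bile acid carrier family, at 26.3 CPM per kb. The urea transporter *Slc14a1* spread from 1.19 to 16.3 CPM among ARG1- libraries (log2 fold change -0.35, standard error 0.55, adjusted p = 0.727). The other 4 are named after a carrier but are not transporters, and of these the scaffold protein NHERF1, *Slc9a3r1*, was highest at 21.5 CPM per kb (log2 fold change -0.36, standard error 0.15, adjusted p = 0.142), while *Slc9a3r2* stood at -0.34 (standard error 0.63, adjusted p = 0.767).

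The fold changes went with exon length. Members higher in ARG1+ microglia had a median exon length of 7783 bases (3705 to 17236), those lower had 3075 bases (1646 to 3798), and those not called had 4607.5 bases. Over the 166 members Spearman's rho between log2 fold change and exon length was 0.464, and over 16879 genes tested it was 0.184; these are correlations across genes of the same 12 libraries and are given as a description. For GC content the values were -0.08 and -0.02. The part of exon length in the calls was measured only by removing trends. With the trend on length and GC content removed, 18 of the 24 members still passed. Among the 6 that did not, the log2 fold change went from 0.59 to 0.23 for *Slc38a1*, from 0.48 to 0.14 for *Slc38a9*, from 0.45 to 0.24 for *Slc40a1* and from 0.47 to 0.32 for *Slc30a5*. It moved less for *Slc38a6* (0.98 to 0.81, adjusted p = 0.0754) and hardly for *Slc30a6* (-0.43 to -0.44, adjusted p = 0.0685). With the trend on length alone removed, 17 of the 24 passed, and *Slc43a2* (0.48, adjusted p = 0.0994) was lost as well.

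**Figure D4:**
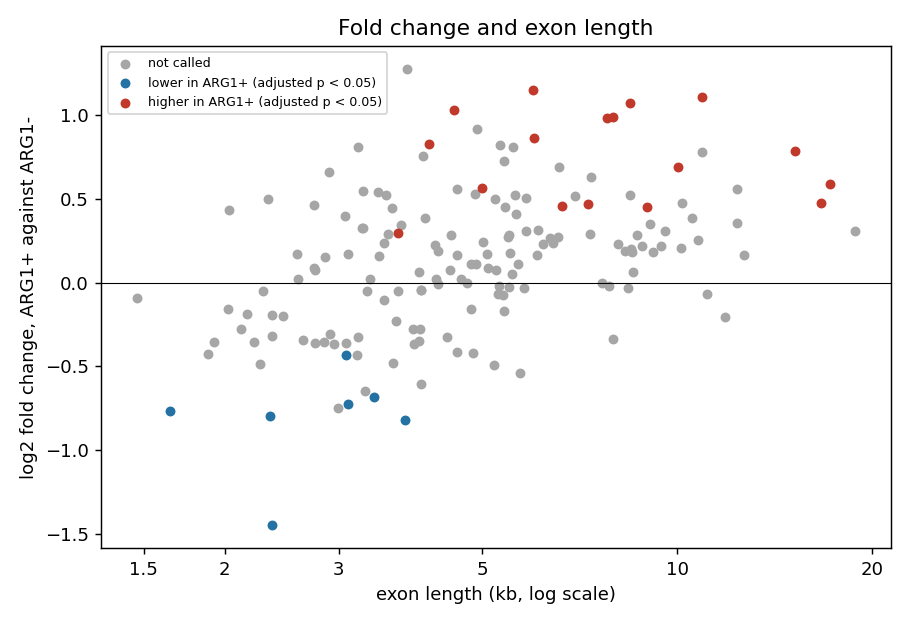
Log2 fold change in ARG1+ against ARG1- microglia (vertical axis) by exon length in kb on a log scale (horizontal axis), 1 point per carrier, with colours for the call. The 7 lower carriers have exons of at most 3798 bases in all, and all but 1 of the 17 higher carriers exceed that length (*Slc11a1* has 3705).

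Within females 7 members and within males 11 members passed (background 6.76% and 5.13% of genes), and *Slc25a5*, *Slc35b2* and *Slc6a6* passed in both sexes. All 24 members called over both sexes were fitted in the same direction in females and in males. Their choice by the pooled fit of the same libraries favours this, so it is no separate evidence. Of the 166 members 112 were fitted in the same direction, and the share of all genes was not computed. In 4 members the populations lay apart in both sexes but in opposite directions, a pattern held by 0.656% of all genes tested and 0.756% of those at 10 counts or more throughout. A difference between the sexes was tested in the fit of 4 group means. No member passed for female against male in ARG1- microglia, in ARG1+ microglia or for the interaction of sex and ARG1 status, where 0.0946%, 0.0355% and 0% of genes passed in edgeR. At an unadjusted p under 0.05, 18, 4 and 24 members lay under it (10%, 3.12% and 9.32% of genes), and DESeq2's Wald test called 5, 0 and 4. Without ARG1- male replicate 5, edgeR called 1, 0 and 1 members. The share of all genes was not computed for the DESeq2 counts or for the fit without that library, so these counts have no background beside them.

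*Slc43a2* had the smallest interaction p. In females it had 120, 140 and 153 CPM in ARG1- and 138, 161 and 167 CPM in ARG1+ libraries, and in males 71.8, 89.0 and 91.7 CPM and 183, 185 and 215 CPM. The male populations lay far apart and the female ones overlapped. The log2 fold change was 0.17 (standard error 0.15) in females and 1.21 (standard error 0.15, adjusted p = 0.00918) in males, and 0.69 (standard error 0.18, adjusted p = 0.023) over both, while the interaction did not pass after adjustment (-1.04, standard error 0.21, adjusted p = 0.242). Over both sexes it did not pass without ARG1- male replicate 5 or without ARG1- male replicate 6, with log2 fold changes between 0.60 and 0.81 over the 12 such fits, and 9.18% of its exon bases overlap the antisense gene *Gm45606*. Nor did it pass with the trend on exon length alone removed (0.48, adjusted p = 0.0994).

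*Slc25a36*, a mitochondrial carrier of pyrimidine nucleotides, showed the reverse order. In females it had 37.1, 38.6 and 47.9 CPM in ARG1- and 67.1, 69.1 and 73.9 CPM in ARG1+ libraries (log2 fold change 0.77, standard error 0.15, adjusted p = 0.0187), and in males 51.1, 60.2 and 66.4 CPM and 51, 51.8 and 56.9 CPM (-0.15, standard error 0.15, adjusted p = 0.613). Its interaction had an adjusted p of 0.365, and over both sexes its log2 fold change was 0.30 (standard error 0.17, adjusted p = 0.265). *Slc10a3* was higher in female than in male ARG1- libraries (58.0 to 80.6 against 40.2 to 46.4 CPM), without overlap, with a log2 fold change of 0.75 (standard error 0.15, adjusted p = 0.193). Among ARG1+ libraries the smallest sex p values were those of *Slc25a36* and of *Slc38a10*, a relative of the amino acid carriers of family 38, at log2 fold changes of 0.40 and -0.39 (standard error 0.15 and 0.17, adjusted p = 1 for both).

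Beside the solute carriers, 26 ABC transporters, which are driven by ATP, had at least 10 counts in every library, and 4 were higher and 0 lower in ARG1+ microglia. The shares were 15.4% and 0%, against 7.11% and 13.4% of all genes at this limit. The cholesterol exporter *Abca1* rose from 249 ± 39.6 to 499 ± 125 CPM (SD, n = 6 each; adjusted p = 0.00179), and *Abcg1*, which exports cholesterol to lipoproteins, from 49.4 ± 18.8 to 80.8 ± 5.45 CPM (0.73, adjusted p = 0.048). *Abcc5* and the peroxisomal *Abcd2* were higher by 0.92 and 0.46. Of 42 carriers and carrier partners under other symbols that reached the same limit, 3 were higher (*Clcn7*, *Mfsd1* and *Mfsd7a*) and 4 were lower (*Bsg*, *Mpc1*, *Mpc2* and *Mtch1*). These were 7.14% and 9.52% of that list. *Bsg*, the chaperone of monocarboxylate transporters, fell from 515 ± 58.5 to 317 ± 43.2 CPM (log2 fold change -0.70, adjusted p = 0.00157), and *Clcn7*, a lysosomal chloride/proton exchanger, rose from 120 ± 22.3 to 183 ± 37.7 CPM (0.62, adjusted p = 0.0196).

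Promoters from 250 bases before to 50 after the start of a gene (RefSeq, GRCm38.p6) were available for 128 of the 166 members and were searched on both strands for CACGTG, the palindrome read by TFEB and other basic helix-loop-helix factors that act on lysosomal and metabolic genes, and for TGATGNAA, the core read by ATF4, a factor of the amino acid response. A gene was counted when any of its promoters held the motif. CACGTG stood in 26 of the 128 members (20.3%), against 12.4% of protein-coding genes that meet the same count limit and 8.09% of all genes with a promoter. Of the members with a promoter, it stood in 2 of 12 higher, 1 of 7 lower and 23 of 109 not called. TGATGNAA stood in 5 of 128 (3.91%), none of them among the 19 called members with a promoter, against 2.67% of the protein-coding genes and 4.51% of all genes with a promoter. The 3 called members with CACGTG are *Slc38a7* and *Slc30a5*, both higher, and *Slc25a13*, lower in ARG1+ microglia. Their promoters are shown because they are the members where the motif and a call meet, from 5′ to 3′ on the strand of the gene with the motif in capitals, at chr8:95853442-95853741, chr13:100833378-100833677 and chr6:6217124-6217423, all on the minus strand.
Slc38a7: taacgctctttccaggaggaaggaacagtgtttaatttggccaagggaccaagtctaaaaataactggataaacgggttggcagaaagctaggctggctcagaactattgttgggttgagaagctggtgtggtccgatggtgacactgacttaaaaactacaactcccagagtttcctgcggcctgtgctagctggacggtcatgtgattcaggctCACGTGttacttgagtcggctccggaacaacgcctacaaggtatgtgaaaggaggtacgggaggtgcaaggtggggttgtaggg
Slc30a5: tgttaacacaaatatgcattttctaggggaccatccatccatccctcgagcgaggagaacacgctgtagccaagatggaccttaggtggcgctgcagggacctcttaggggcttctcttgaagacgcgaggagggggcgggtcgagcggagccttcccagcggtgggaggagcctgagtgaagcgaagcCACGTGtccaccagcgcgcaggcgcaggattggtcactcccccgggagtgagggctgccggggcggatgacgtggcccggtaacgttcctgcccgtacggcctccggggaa
Slc25a13: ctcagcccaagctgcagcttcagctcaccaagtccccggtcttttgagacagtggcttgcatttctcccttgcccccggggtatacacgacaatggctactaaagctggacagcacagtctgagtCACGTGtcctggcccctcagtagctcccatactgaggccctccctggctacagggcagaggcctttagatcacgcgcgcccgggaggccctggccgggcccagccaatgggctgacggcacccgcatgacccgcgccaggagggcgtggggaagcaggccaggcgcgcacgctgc
The first base of the motif lies at position -34 from the start of *Slc38a7*, -61 from that of *Slc30a5* and -125 from that of *Slc25a13*. A match describes these letters and is not a measured binding site.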

How the data were processed

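RNA-seq of 12 libraries of sorted microglia was used. The values the authors deposited are raw counts per gene, without normalization, 1 column per library. According to the labels and the study's methods, cDNA was made with SMART-Seq v4 and libraries with Nextera XT, and reads were demultiplexed with bcl2fastq 2.20.0, aligned to GRCm38 with STAR 2.6.1d and counted with featureCounts 1.5.1, before the authors' own test with DESeq2 1.28.1. The strand setting is not given in the sources used here, and reads carry no molecular identifiers, so copies made in amplification count as separate reads and limits such as the 3-count floor cover counting error only. Symbols, exons and gene types came from GENCODE M21 (55227 of 55487 identifiers matched, and the 260 others held 0.0333% of counts).

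Low genes were removed with filterByExpr over the 4 groups, which left 16908, and TMM-scaled counts were fitted with glmQLFit and glmQLFTest (edgeR 4.0.16, R 4.3.3), with ARG1 status and sex as terms, and with the 4 group means for contrasts between sexes. Adjusted p values are Benjamini-Hochberg over all genes tested, with a limit of 0.05, and standard errors are the fold change divided by the square root of F. The test was run on simulated counts first. Replicates differed by far more than sampling noise (chi-square of 40.7 to 125 times the degrees of freedom), so each library is 1 replicate.

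The members, the substrate classes and the related gene lists were chosen with earlier results of these data known, and 6 genes were reassigned to other classes after the counts were seen. Genes named with values are, in each class, the 3 largest changes among those called and the carrier with the highest level per kb (with none called, the one of smallest p), the 2 of smallest p for each contrast of the sexes and for their interaction, those next to the count limit and the 5 highest levels. Others were named after their values were seen, among them *Slc38a1*, *Slc38a9*, *Slc7a8*, *Slc7a5*, *Slc7a6*, *Slc7a7*, *Slc35d2*, *Slc35e2*, *Slc9a7* and the related genes. Alternatives were DESeq2 1.42.0, its size factors, upper-quartile factors, other filters, thinned counts, removal of length and GC trends (mgcv 1.9.3), other terms and each library left out. Removal of the length trend alone, and of the trend with the mean level, was added after seeing the data. The result of 1 marker gene is not reported here.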

Additional observations from a re-analysis of the deposited data

Results flagged for a closer look

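Within the 6 libraries of a population, 5 of 76 sets of values examined (2 populations of 38 named members) had 1 library far from the others by Dixon's criterion, where chance gives 3.8. All 5 were in ARG1- libraries. *Slc6a6* was lowest in ARG1- male replicate 14 at 67.8 CPM (next 115). In the same library *Slc9a3r1* was lowest at 29.3 CPM (next 45.9) and *Slc46a3* highest at 404 CPM (next 308). *Slc30a5* was highest in ARG1- female replicate 1 at 120 CPM (next 84.4), and *Slc41a1* was lowest in ARG1- male replicate 6 at 0.335 CPM (next 12.2). Without the library in question, *Slc6a6* still passed, and so did *Slc30a5*. Without ARG1- male replicate 14, the class of *Slc9a3r1*, named after a carrier, held 1 lower call, where 7.56% of all genes were lower.

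In 4 of 166 members all ARG1+ libraries lay on one side of the ARG1- libraries in females and on the opposite side in males, a pattern shown by 0.756% of genes with 10 counts or more throughout and 0.656% of all genes tested. *Slc10a3* was lower in female and higher in male ARG1+ libraries, with a difference between the sexes' log2 fold changes of -0.79 (SE 0.22, edgeR adjusted p = 0.433), and 12.8% of its exon bases overlap *Ubl4a* on the same strand. *Slc3a2* moved likewise, with a difference of -0.53 (SE 0.19, adjusted p = 0.486). The others were *Slc19a1*, a folate transporter (-1.07, SE 0.28, adjusted p = 0.433), and *Slc35e3* (-1.11, SE 0.42, adjusted p = 0.491), named after their values were seen. None passed the test of the difference itself after adjustment.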

How the results depend on the processing

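Of 24 called members, 9 (*Slc12a2*, *Slc23a2*, *Slc25a4*, *Slc25a5*, *Slc2a5*, *Slc35b2*, *Slc38a7*, *Slc5a10* and *Slc6a6*) passed in all 11 alternatives that kept every library. The count of higher and lower members was 22 and 6 with DESeq2 size factors, 20 and 6 with upper-quartile factors, 14 and 5 without a filter, 27 and 6 with at least 10 counts in every library, 20 and 7 with thinned counts, 15 and 7 without the length and GC trend, 13 and 6 without the length trend, 23 and 6 without the sex term, 21 and 6 with a term for libraries numbered 13 to 16, and 33 and 9 with DESeq2 without a prior, which also called 5 members between sexes in ARG1- microglia and 4 in the interaction. In the edgeR fits of this list, 3.36 to 11% of genes tested were higher and 3.7 to 13.5% lower. With DESeq2, 3.86% and 3.54% of the 55487 genes of the count table were. Only 29671 of these genes had a count in any library, so these shares are not comparable with those of edgeR or of the members. Each library left out in turn gave 11 to 24 higher and 4 to 8 lower members (3.89 to 6.27% and 5.83 to 8.73% of genes tested), and 0 to 1 between sexes in ARG1- microglia and in the interaction. For the sex calls of DESeq2 and of the fits that left out 1 library, the share of all genes was not computed. With the length and GC trend and the mean level removed, which shifts all genes by construction, 4 were higher and 24 lower, 11 of the 24 called members still passed, and log2 fold changes turned to -0.091 for *Slc12a9*, -0.19 for *Slc16a6*, -0.24 for *Slc25a36*, -0.14 for *Slc25a45*, -0.053 for *Slc38a1*, -0.17 for *Slc38a10*, -0.14 for *Slc38a9* and -0.036 for *Slc40a1*. Over the fits that each left out 1 library, those of *Slc14a1* and *Slc9a3r2*, both low and uncalled, ran from -0.55 to 0.13 and from -0.69 to 0.027, turning positive without ARG1- female replicate 13; the cause was not tested. No paired analysis was possible because the groups share no replicate number in the labels. With 3 libraries per group, the interaction and the carriers under about 10 CPM are the least precise.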
